A study of Homo sapiens with 6 samples.

Results

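The genes described here build, bind and anchor actin filaments, together with serum response factor (SRF), the transcription factor that drives many of them. The list held 40 genes chosen by symbol, and all probe sets that carry one of these symbols in the platform annotation were taken. Of the 40 genes, 38 were measured, out of 18132 genes in all, by 162 tested probe sets out of 49293. TPM3 and FHL1 were not analysed here. The list was put together with results of the same comparison known. The differences of its members are therefore given as a description. They are called by the threshold of the fit over all genes, no p is printed for them, and nothing is supported with them.

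The samples were Huh7 cells, an established human hepatocellular carcinoma line, in logarithmic growth in all groups. There were 3 arrays of cells labelled as silenced for KCa3.1 and 3 arrays of control Huh7 cells. KCa3.1 is a calcium-activated potassium channel encoded by KCNN4. The labels call the silenced cells a knockdown. Neither the means of silencing nor the nature of the control is given in the labels, and nothing says that the replicates were separate cultures, so a p-value here measures the spread between arrays, and that spread may be technical. Total RNA was measured on 1-colour oligonucleotide arrays. Values are log2 RMA values that were centred near 0 for each probe set, so a difference between the labels can be read but a level of expression cannot. For the same reason the cell type could not be checked against the levels of its markers.

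KCNN4 was not lower in the arrays labelled as silenced. Its values were -0.055, 0.089 and 0.011 in the silenced-labelled arrays, against -0.0062, 0.126 and -0.073 in the control arrays, and the groups overlapped (limma adjusted p = 0.999, two-sided exact permutation p = 1 against a smallest possible 0.1). Directions below are therefore between arrays as labelled. Over all probe sets, which are not independent of each other, pairs of arrays that share a label had r of 0.406 to 0.67. Pairs across labels had r of -0.273 to 0.0676. Centring per probe set can itself lower r between arrays, so low r across labels does not measure how far the labels lie apart. Of 8 fibroblast and stellate cell markers 1 passed the test, COL1A2, which rose by 0.55, and of 4 endothelial and 4 leukocyte markers none passed (0 each). These lists had median differences of 0.039, -0.017 and 0.0099. Of 5 measured hepatocyte markers 2 passed, AFP, which rose by 0.70 (limma adjusted p = 0.00024), and SERPINA1, which rose by 0.40 (limma adjusted p = 0.0029). TF, the 1 hepatocyte marker below 0, differed by -0.19 with groups that did not overlap, and did not pass. The median difference of the hepatocyte list was 0.16. Over all genes tested 13.3% passed in either direction. The part of the markers in the results below was not tested, and whether other cells were present cannot be read from centred values.

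Actin filaments grow from pools of free actin monomers, are coated by tropomyosins, pulled by myosin II and tied to the cell's exterior at focal adhesions. Free monomers hold the SRF cofactors MRTFA and MRTFB in the cytoplasm. When monomers are used up in filaments, the cofactors enter the nucleus and, with SRF at a DNA element called the CArG box, drive genes of the filaments themselves. Several of the genes, such as TAGLN and CNN1, are best known from smooth muscle and are also switched on in cells that spread and migrate.

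The CArG box, which reads the same on both strands as a consensus, was looked for in the 250 bases before each start of transcription in RefSeq's promoter table (GRCh38.p14). Of the 38 measured members 34 had a promoter in that table, with 59 windows between them. A box lay in at least 1 window of 7 of the 34 members, or 20.6%, against 1.44% of the 27305 genes in the table. By window the share was 15.3% for the members, against 1.16% of all 35116 windows. The members had been listed in part as known SRF targets, so the share of boxes is a property of how they were named. The 7 genes were ACTG1, ACTG2, ACTN1, CNN2, FHL2, SRF and TPM4. Stretches of 6 of them are printed here, with the boxes in capitals and 5′ to 3′ along the gene. The stretch of ACTN1 is not printed.
ACTG1, chr17:81512859-81512918, minus strand: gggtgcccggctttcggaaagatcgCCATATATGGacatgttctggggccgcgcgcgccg
CNN2, chr19:1026494-1026553, plus strand: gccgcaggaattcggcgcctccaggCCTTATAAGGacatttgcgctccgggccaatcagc
TPM4, chr19:16067340-16067399, plus strand: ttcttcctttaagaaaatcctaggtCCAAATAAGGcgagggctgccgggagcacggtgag
FHL2, upstream start, chr2:105438580-105438639, minus strand: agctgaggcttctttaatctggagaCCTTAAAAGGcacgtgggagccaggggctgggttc
FHL2, downstream start, chr2:105399076-105399135, minus strand: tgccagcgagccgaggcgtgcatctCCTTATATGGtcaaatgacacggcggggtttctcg
ACTG2, chr2:73892873-73892969, plus strand: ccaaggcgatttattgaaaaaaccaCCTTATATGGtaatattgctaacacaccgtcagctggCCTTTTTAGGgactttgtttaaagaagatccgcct
SRF, chr6:43171214-43171268, plus strand: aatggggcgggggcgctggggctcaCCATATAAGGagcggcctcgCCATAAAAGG

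Of the 7 genes with a box, FHL2, TPM4, CNN2 and ACTG1 were among the members that were lower past the threshold, and ACTG2, ACTN1 and SRF were not. The 7 genes had a median difference of -0.43 on the log2 scale, silenced minus control. The 27 members with promoters but no box in these windows had a median of -0.20, and 12 of them were lower. TAGLN, ACTB, MYL9 and PARVA, of which TAGLN and MYL9 were lower past the threshold, are in neither group. Over all genes tested 6.19% were lower. The members were listed with results of this contrast known, so nothing is read from setting these groups side by side. The absence of a match says only that these letters are not in these windows.

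Taken over all members, 18 of 38 were lower and 1 was higher in the silenced-labelled arrays at an adjusted p under 0.05 in limma's fit over all genes, and 19 did not pass. Over all genes tested 6.19% were lower and 7.14% higher by the same rule, 13.3% in either direction. The rule that chose the members used this contrast, so nothing is read from the count. The median difference was -0.21 over the 38 members and -0.0058 over all genes, and 35 of 38 members lay below 0, against 52.2% of all genes. The 2 labels did not overlap, with silenced-labelled arrays lower, in 23 members (14.4% of all genes), and with silenced-labelled arrays higher in 2 (15% of all genes), with 29.3% of all genes not overlapping in either direction. In bulk RNA, fewer cells that express a gene and less of its RNA per cell cannot be told apart. The heat map of values by array shows the members by role.

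**Figure D1:**
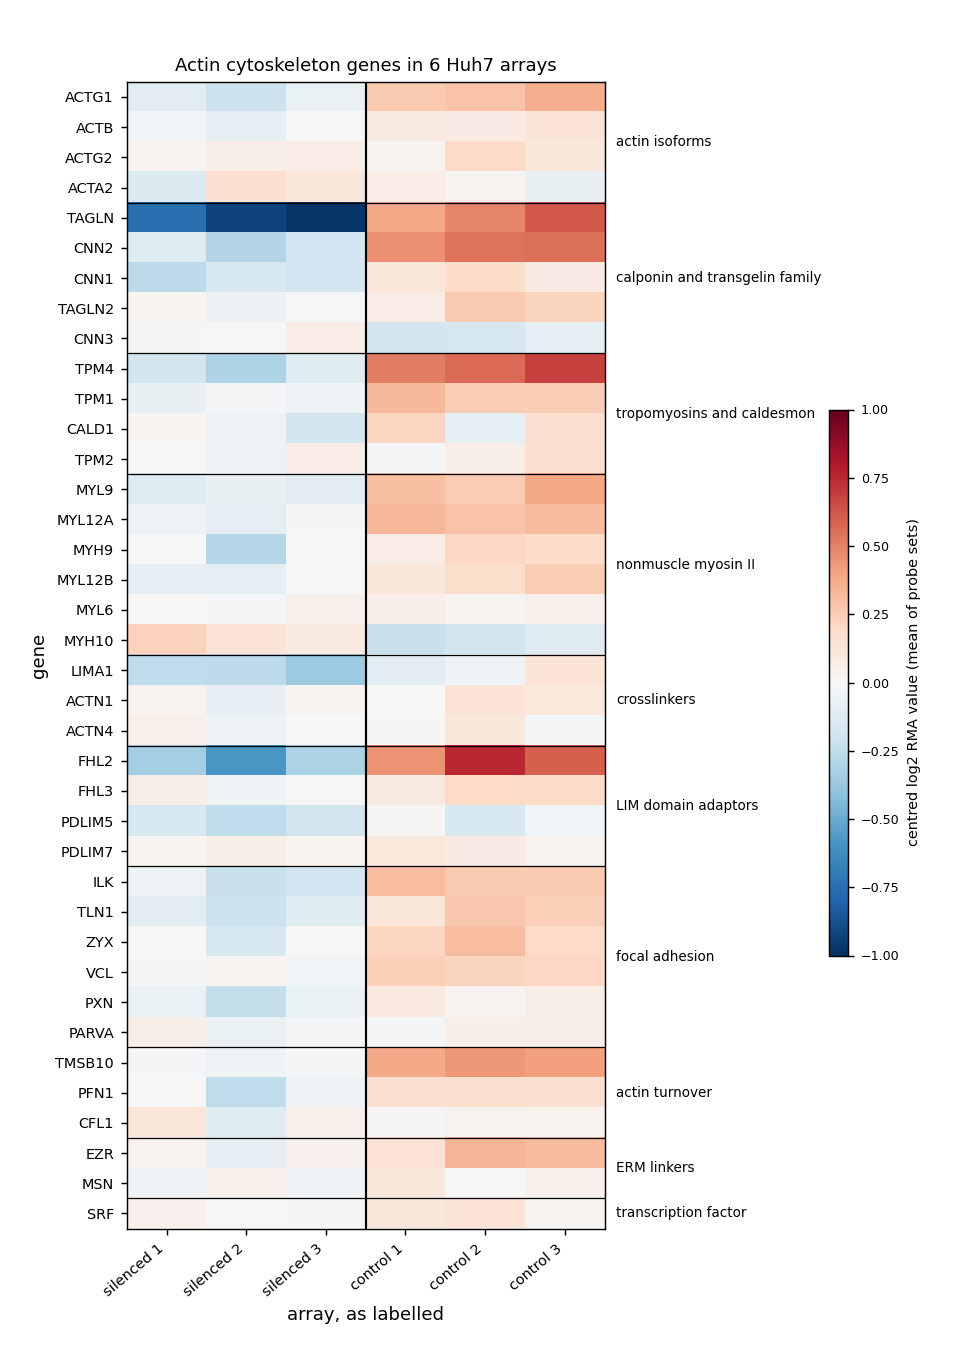
Centred log2 RMA values of the 38 measured genes (rows, grouped by role) in the 3 silenced-labelled arrays (left of the line) and the 3 control arrays (right). Blue is below and red above each probe set's baseline. TAGLN, FHL2, TPM4 and CNN2 show the widest separation, and MYH10 and CNN3 run the other way.

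Of the 4 actin isoforms 1 passed the threshold. Cytoplasmic gamma-actin, ACTG1, had values of -0.11, -0.22 and -0.065 in the silenced-labelled arrays, against 0.26, 0.28 and 0.36 in the control arrays. All 3 silenced-labelled arrays lay below all control arrays, and ACTG1 was 1.35-fold lower (log2 difference -0.43, SE 0.062). Its 5 probe sets gave differences between -0.56 and -0.37. All 5 are named x_at, whose probes may also pick up related transcripts, and actin genes are close in sequence, so the value is uncertain as to isoform. Cytoplasmic beta-actin, ACTB, averaged -0.039 ± 0.048 in the silenced-labelled and 0.099 ± 0.023 in the control arrays (SD, n = 3 each). Its groups did not overlap, but the difference of -0.14 did not pass the threshold. The 3 tested probe sets of ACTB are also named x_at, so its value too is uncertain as to isoform.

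ACTB also has 3 control probe sets along its transcript, which were not part of the fit. They gave differences of -0.16 at the 5′ end, -0.13 in the middle and -0.11 at the 3′ end, and the groups overlapped at the 5′ end but not at the other positions. Those of GAPDH, the reference of the same kind, gave 0.0057, 0.017 and -0.0064, all with overlapping groups. The smooth muscle isoforms ACTA2 and ACTG2 had differences of 0.042 (SE 0.085) and -0.054 (SE 0.06), with overlapping groups. In ACTG2 the 5 probe sets spread from -0.24 to 0.35, so its mean hides disagreement.

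The transgelins and calponins, related proteins that bind along actin filaments, held the largest difference of the list. TAGLN, the smooth muscle protein transgelin (SM22), had values of -0.76, -0.92 and -0.97 in the silenced-labelled arrays, against 0.38, 0.49 and 0.61 in the control arrays. It was 2.6-fold lower (log2 difference -1.38, SE 0.08), the lowest difference of the members and the 16th lowest of 18132 genes. All 6 of its probe sets were past the threshold, with differences between -1.54 and -1.20.

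CNN2, the calponin of nonmuscle cells, had values of -0.12, -0.29 and -0.19 in the silenced-labelled arrays, against 0.46, 0.54 and 0.55 in the control arrays. It was 1.65-fold lower (log2 difference -0.72, SE 0.063), with all 9 probe sets past the threshold between -0.88 and -0.57. CNN1, the smooth muscle calponin, had values of -0.26, -0.16 and -0.19 in the silenced-labelled arrays, against 0.12, 0.18 and 0.083 in the control arrays (log2 difference -0.33, SE 0.057). Of its 4 probe sets 2 were past the threshold, at -0.91 and -0.30, and the others differed by -0.082 and -0.036. The 2 that passed are named s_at, a kind shared by several transcripts, and CNN1 differed by -0.036 when only probe sets named at or a_at were kept.

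The other members of the family did not pass. TAGLN2, a widely expressed transgelin, differed by -0.20 (SE 0.065) and CNN3, the acidic calponin, by 0.17 (SE 0.056), each with groups that did not overlap. With the median over probe sets in place of the mean, TAGLN2 passed at -0.23 and CNN1 did not at -0.18. In CNN3 all 3 silenced-labelled arrays lay above the control arrays, opposite to TAGLN and CNN2.

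**Figure D2:**
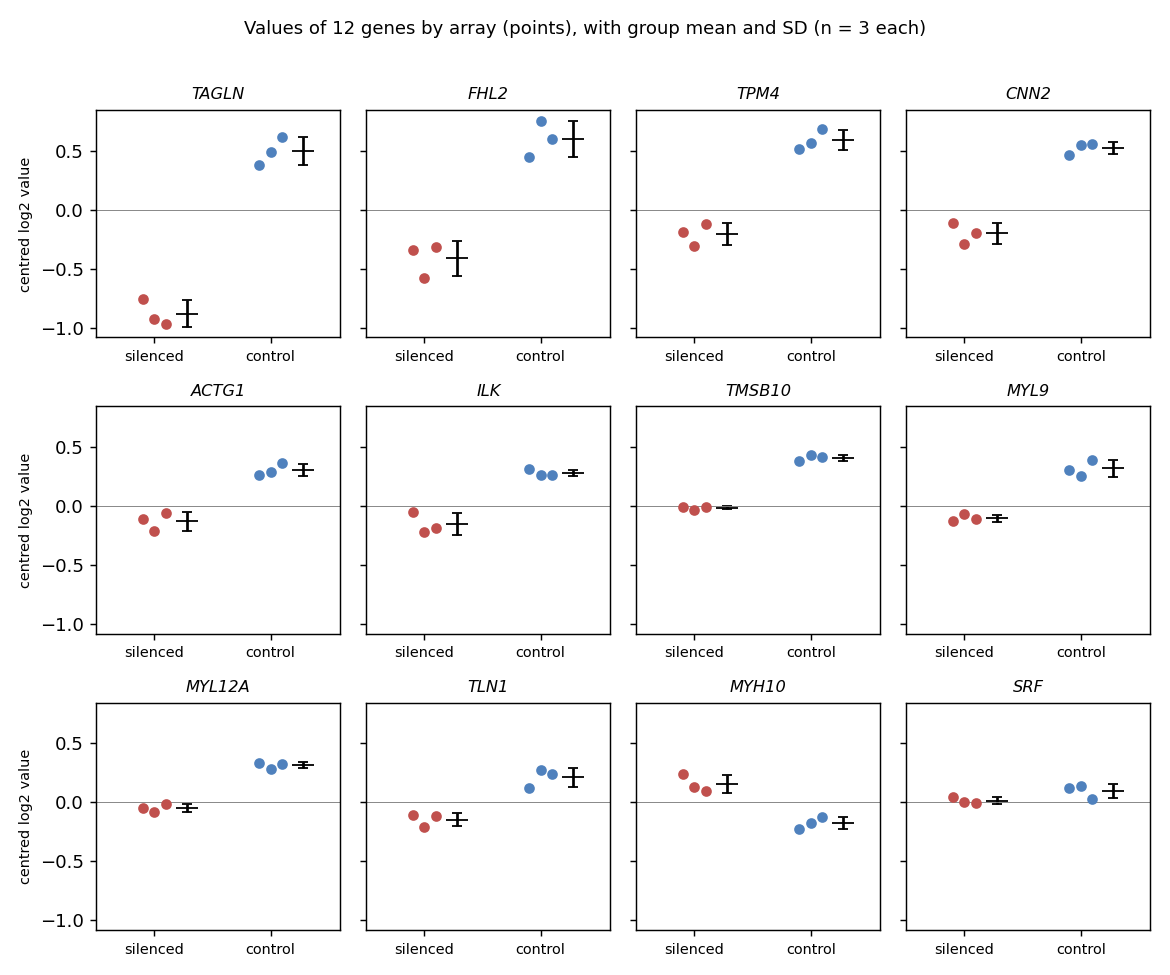
Centred log2 values of selected genes by array, silenced-labelled arrays (red) left and control arrays (blue) right, with the group mean and SD beside the points (n = 3 each). In all panels but MYH10 and SRF the silenced-labelled arrays lie below the control arrays, in MYH10 they lie above, and in SRF the groups overlap.

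Tropomyosins are coiled-coil proteins that coat the filament and set which partners can bind it. TPM4, a nonmuscle form, had values of -0.19, -0.31 and -0.12 in the silenced-labelled arrays, against 0.51, 0.57 and 0.68 in the control arrays. It was 1.74-fold lower (log2 difference -0.80, SE 0.071), and its 5 probe sets, all past the threshold, lay between -1.003 and -0.64. TPM1 had values of -0.071, -0.019 and -0.045 in the silenced-labelled arrays, against 0.33, 0.26 and 0.25 in the control arrays, a difference of -0.32 (SE 0.053).

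TPM1 is spliced into many forms, and its 9 probe sets were not alike. Of these, 7 were past the threshold, between -0.62 and -0.28, and the other 2 gave -0.054 and -0.022. TPM2 differed by -0.063 (SE 0.066), a mean of probe sets at -0.27, -0.24, 0.11 and 0.15. Caldesmon, CALD1, which binds actin, myosin and tropomyosin, had 10 probe sets that all lay below 0, between -0.23 and -0.085, but its mean difference of -0.17 (SE 0.09) did not pass and its groups overlapped.

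Nonmuscle myosin II is the motor that contracts the filaments, with heavy chains MYH9 and MYH10 and light chains from the MYL genes. MYL9, a regulatory light chain, had values of -0.13, -0.072 and -0.12 in the silenced-labelled arrays, against 0.30, 0.25 and 0.39 in the control arrays (log2 difference -0.42, SE 0.057). MYL12A, a second regulatory light chain, had values of -0.048, -0.087 and -0.019 in the silenced-labelled arrays, against 0.33, 0.28 and 0.32 in the control arrays (log2 difference -0.36, SE 0.052). The close copy MYL12B had values of -0.086, -0.087 and 0 in the silenced-labelled arrays, against 0.11, 0.18 and 0.26 in the control arrays (log2 difference -0.24, SE 0.06).

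The light chains of the regulatory kind were thus lower, while the essential light chain MYL6 differed by -0.039 (SE 0.052) with overlapping groups. MYL12A and MYL12B are near-identical genes, and MYL12B has 1 probe set, of the s_at kind, which did not pass in the fit over single probe sets, so its value is uncertain. The 2 probe sets of MYL9 are named x_at, so its value is uncertain as to gene. MYL12A has a probe set named at, which gave -0.40.

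Of the heavy chains MYH10 passed the threshold and MYH9 did not. MYH10, nonmuscle myosin IIB, had values of 0.23, 0.13 and 0.091 in the silenced-labelled arrays, against -0.23, -0.18 and -0.13 in the control arrays. It was 1.26-fold higher (log2 difference 0.33, SE 0.06), the only member higher past the threshold, and its 3 probe sets lay between 0.32 and 0.34, 2 of them past the threshold. With its most variable probe set in place of the mean, MYH10 did not pass. MYH9, nonmuscle myosin IIA, had values of -0.0020, -0.29 and -0.0020 in the silenced-labelled arrays, against 0.077, 0.21 and 0.18 in the control arrays. Silenced-labelled array 2 was far below the other silenced-labelled arrays, and the difference of -0.25 (SE 0.085) did not pass.

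Of the proteins that crosslink filaments, LIMA1 (EPLIN) had values of -0.26, -0.26 and -0.36 in the silenced-labelled arrays, against -0.11, -0.035 and 0.14 in the control arrays (log2 difference -0.29, SE 0.074). Of its 3 probe sets 2 differed, by -0.47 and -0.39, and the third lay at -0.02. The alpha-actinins ACTN1 and ACTN4, which bundle filaments, differed by -0.084 (SE 0.062) and -0.036 (SE 0.06), with overlapping groups.

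The LIM domain adaptors held the second largest difference. FHL2, a cofactor of transcription factors that also sits at focal adhesions, had values of -0.34, -0.58 and -0.32 in the silenced-labelled arrays, against 0.45, 0.75 and 0.59 in the control arrays. It was 2.02-fold lower (log2 difference -1.01, SE 0.096), and its 3 probe sets, all past the threshold, gave -1.38, -1.002 and -0.65. Its SDs were 0.146 in the silenced-labelled and 0.152 in the control arrays. Its relative FHL3 differed by -0.15 (SE 0.059), with groups that did not overlap, and did not pass.

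PDLIM5, an adaptor of Z-discs and stress fibres, did not pass as a gene (-0.14, SE 0.064), but 3 of its 6 probe sets did, at -0.40, -0.37 and -0.33. The other 3 gave 0.014, 0.059 and 0.17. PDLIM7 differed by -0.042 (SE 0.052) and its 7 probe sets stayed between -0.14 and 0.028.

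**Figure D3:**
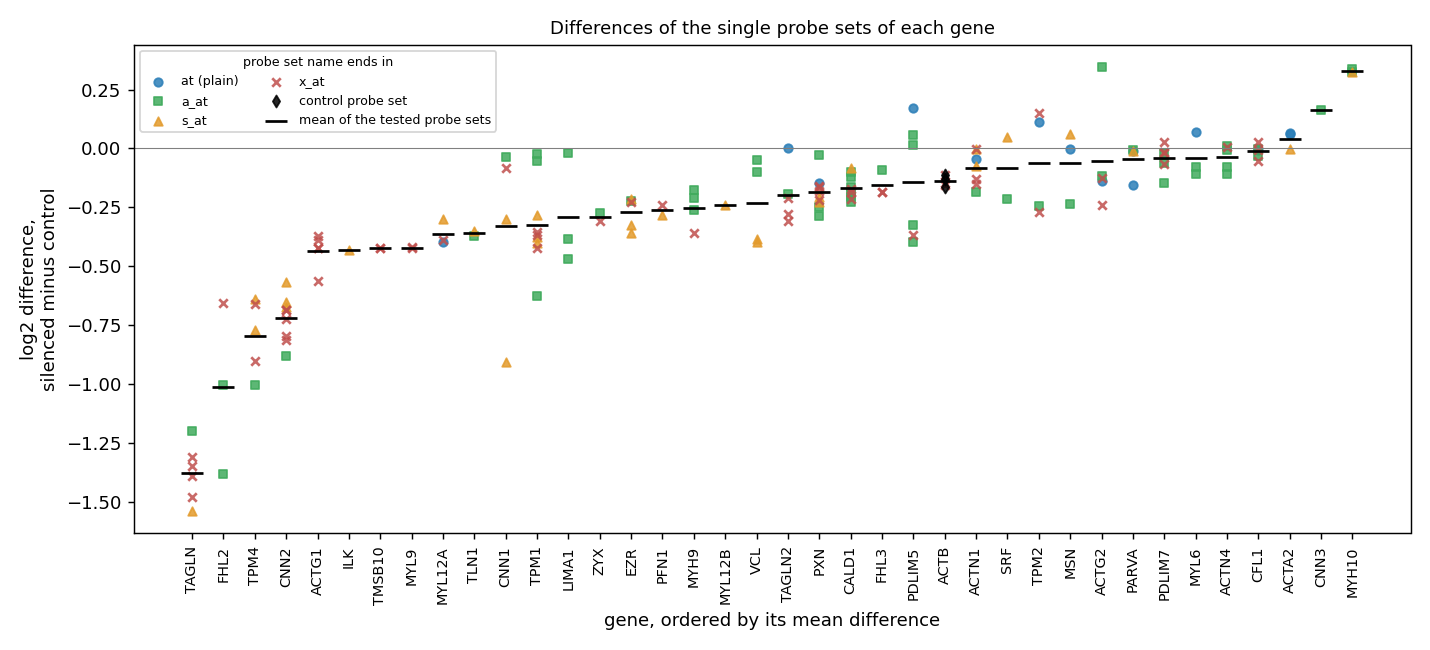
Log2 differences, silenced minus control, of the single probe sets of each gene, ordered by the gene's mean (black bars), with the kind of probe set by its name. The 9 probe sets of CNN2 all lie between -0.88 and -0.57, those of CNN1 lie between -0.91 and -0.036, and those of PDLIM5 and ACTG2 lie on both sides of 0.

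Focal adhesions link filaments to integrins. Integrin-linked kinase, ILK, had values of -0.05, -0.22 and -0.19 in the silenced-labelled arrays, against 0.31, 0.26 and 0.26 in the control arrays (log2 difference -0.43, SE 0.062, 1 probe set). Talin, TLN1, which binds integrin tails, had values of -0.11, -0.21 and -0.12 in the silenced-labelled arrays, against 0.12, 0.27 and 0.24 in the control arrays (log2 difference -0.36, SE 0.062). Zyxin, ZYX, which joins strained filaments, had values of 0.0075, -0.16 and -0.0012 in the silenced-labelled arrays, against 0.21, 0.31 and 0.20 in the control arrays (log2 difference -0.29, SE 0.066).

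In each of the 3 genes all silenced-labelled arrays lay below all control arrays. Vinculin, VCL, which strengthens the talin link, had values of -0.022, 0.019 and -0.031 in the silenced-labelled arrays, against 0.24, 0.22 and 0.20 in the control arrays (log2 difference -0.23, SE 0.051). Its 2 s_at probe sets gave -0.40, which passed, and -0.38, and its 2 a_at probe sets -0.10 and -0.049. Paxillin, PXN, an adhesion scaffold, differed by -0.19 (SE 0.064) and did not pass, although all 10 of its probe sets lay below 0 and 2 passed singly. PARVA, the actin-binding partner of ILK, differed by -0.045 (SE 0.058) with overlapping groups.

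Among regulators of actin turnover, TMSB10, a thymosin that binds free monomers, had values of -0.011, -0.032 and -0.012 in the silenced-labelled arrays, against 0.38, 0.43 and 0.41 in the control arrays. Its groups were tight, with SDs of 0.0121 in the silenced-labelled and 0.0275 in the control arrays, and it was 1.34-fold lower (log2 difference -0.42, SE 0.051). Profilin, PFN1, which feeds monomers to growing ends, had values of -0.003, -0.25 and -0.047 in the silenced-labelled arrays, against 0.17, 0.17 and 0.15 in the control arrays (log2 difference -0.26, SE 0.072). Silenced-labelled array 2 was far below the other silenced-labelled arrays. The 2 probe sets of PFN1 did not pass in the fit over single probe sets, so its value is uncertain. Cofilin, CFL1, which severs filaments, differed by -0.013 (SE 0.07), and its 6 probe sets lay between -0.053 and 0.026.

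Of the linkers between the filaments and the plasma membrane, ezrin, EZR, had values of 0.038, -0.084 and 0.039 in the silenced-labelled arrays, against 0.14, 0.34 and 0.32 in the control arrays (log2 difference -0.27, SE 0.071). Moesin, MSN, differed by -0.06 (SE 0.058) with overlapping groups. SRF itself had values of 0.045, 0.0027 and -0.013 in the silenced-labelled arrays, against 0.12, 0.13 and 0.028 in the control arrays. The groups overlapped, the difference was -0.081 (95% interval -0.21 to 0.044), and its 2 probe sets gave -0.21 and 0.05.

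By role, the members lower past the threshold were 3 of 5 transgelins and calponins, 2 of 4 tropomyosins and caldesmon, 3 of 6 myosin II chains and 4 of 6 focal adhesion genes. They were also 1 of 4 actins, 1 of 3 crosslinkers, 1 of 4 LIM adaptors, 2 of 3 turnover genes, 1 of 2 membrane linkers and 0 of 1 transcription factor. Over all genes tested 6.19% were lower. The members were listed with this contrast known, so the roles are not ranked by these counts. The 2 groups of arrays had like spreads over the members, with a median SD of 0.0562 in the silenced-labelled and 0.0588 in the control arrays. Of the silenced-labelled arrays, array 2 was the lowest in 24 of 38 members, and its median over the members was -0.084, against -0.017 and -0.014 in the silenced-labelled arrays 1 and 3. The control arrays had medians of 0.11, 0.18 and 0.16.

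Without silenced-labelled array 2, 13 members were lower and 1 was higher. The count of lower members was also 13 without silenced-labelled array 3 or without control array 2. It was 14 without silenced-labelled array 1 or control array 3, and 18 without control array 1. Over the 6 fits that each left out 1 array, 13 of the 19 members past the threshold stayed past it in all 6. MYL12B, LIMA1, VCL, ZYX, PFN1 and EZR lost it in at least 1. MYL12B, LIMA1, PFN1 and EZR each passed in 1 of the 6 fits, and VCL and ZYX in 4 each.

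**Figure D4:**
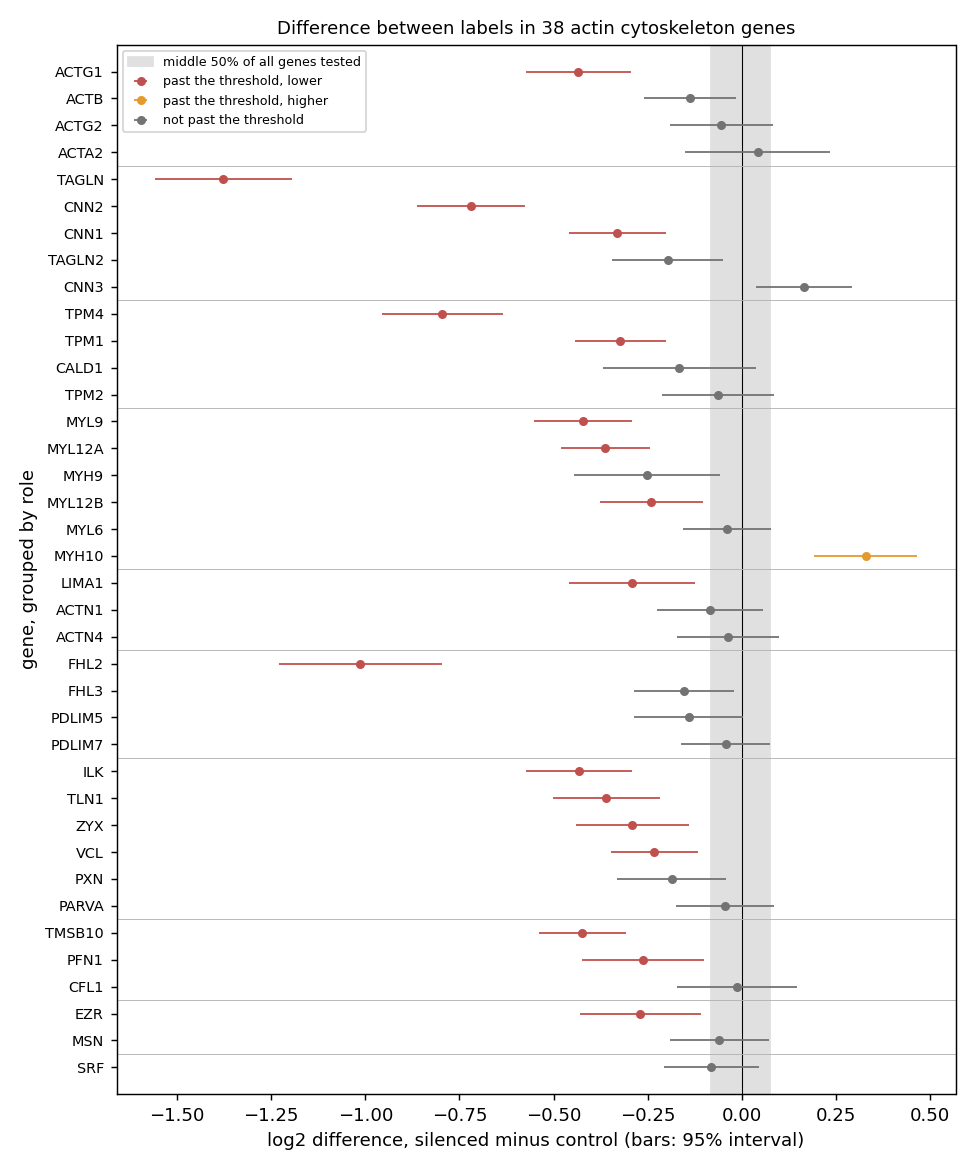
Log2 difference, silenced minus control, of the 38 genes with limma's 95% interval (bars), grouped by role. The grey band runs from the lower to the upper quartile of all genes tested, -0.082 to 0.075, and colours mark genes past the threshold in the fit over all genes.

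The kind of probe set matters for these genes. Of the 162 tested probe sets 92, or 56.8%, are named x_at or s_at. When only probe sets named at or a_at were averaged, 8 members remained lower past the threshold, TAGLN, CNN2, TPM4, MYL12A, LIMA1, FHL2, TLN1 and ZYX. ACTG1, MYL9, MYL12B, ILK, PFN1 and TMSB10 had no such probe set, and CNN1, TPM1, VCL and EZR had one and no longer passed. Of all genes in that fit, 1968 of 16701 changed in either direction. By single probe set, 58 of the 162 were lower and 2 higher at an adjusted p under 0.05, against 4.85% and 5.82% of all probe sets, 10.7% in either direction.

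The rest of the actin and SRF machinery was read from 6 lists of 128 other genes, of which 117 were measured. By limma's test over all genes 25 of them fell and 6 rose, or 21.4% and 5.13%, against 6.19% and 7.14% of all genes. The median of the 117 was -0.05. The lists were drawn from textbook roles, with earlier results of these data known. Their shares and p-values are therefore given as a description, and nothing is read from setting them beside those of all genes. The genes named from a list below are its largest changes past the threshold, apart from MRTFA and MRTFB.

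**Figure D5:**
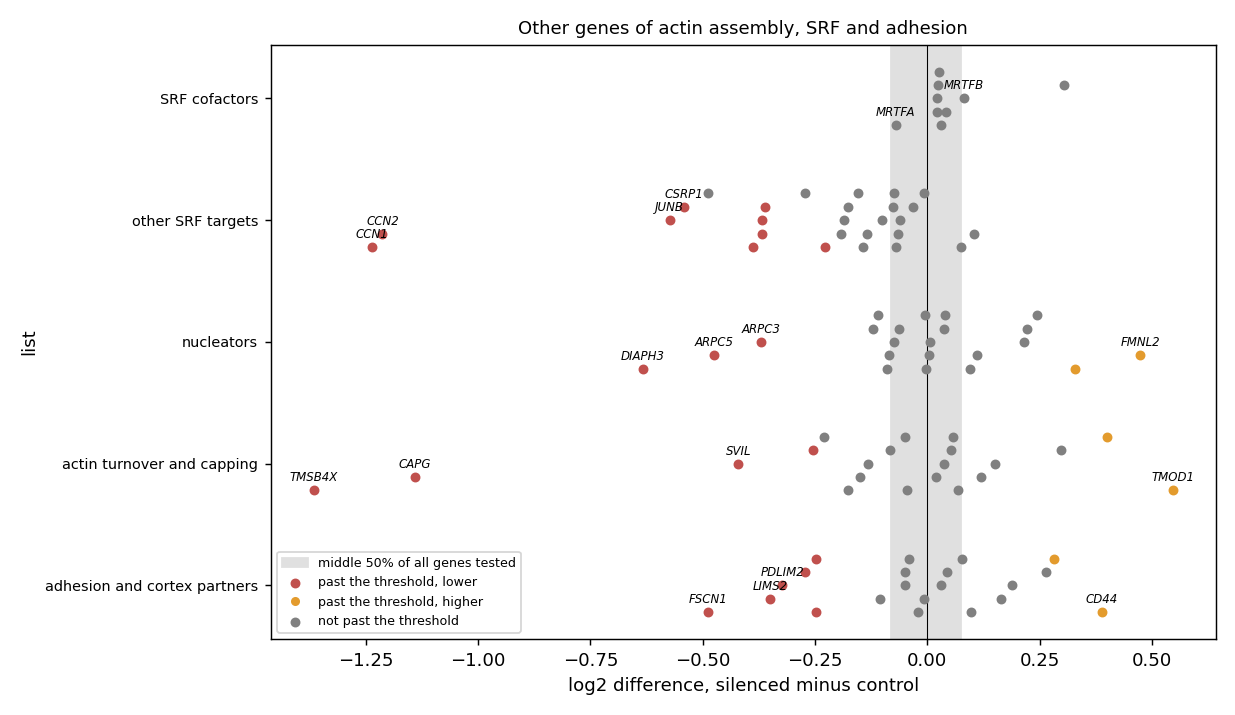
Log2 differences, silenced minus control, of the other genes of actin assembly, SRF and adhesion in 5 lists (rows; points are spread vertically only to keep them apart). The grey band runs from the lower to the upper quartile of all genes tested, and named points are described in the text. TMSB4X, CCN1, CCN2 and CAPG lie below -1.

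None of the 9 SRF cofactors and regulators passed (0 lower and 0 higher), with a median difference of 0.027. MRTFA and MRTFB, which carry the actin signal to SRF, did not pass. MRTFA differed by -0.07 (limma adjusted p = 0.48), and MRTFB by 0.081 with a limma adjusted p of 0.40. Among 27 measured SRF targets outside the member list, 9 fell and 0 rose, or 33.3% and 0%, against 6.19% and 7.14% of all genes. The median over all 27 was -0.18. The matricellular genes CCN1 and CCN2, which are also targets of YAP, fell by 1.24 and fell by 1.21 on the log2 scale (limma adjusted p = 2.7e-05 and 1.2e-05). The immediate early gene JUNB averaged -0.397 ± 0.0395 in the silenced-labelled arrays and 0.176 ± 0.121 in the control arrays (SD, n = 3 each, limma adjusted p = 0.00079). CSRP1, a LIM protein of smooth muscle filaments, averaged -0.0122 ± 0.0635 in the silenced-labelled arrays and 0.529 ± 0.0448 in the control arrays (SD, n = 3 each, limma adjusted p = 0.00039).

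Of 21 measured genes of turnover and capping 4 fell and 2 rose, or 19% and 9.52%, against 6.19% and 7.14% of all genes. TMSB4X, the main thymosin that holds free actin monomers and a relative of TMSB10, averaged -0.868 ± 0.0219 in the silenced-labelled arrays and 0.497 ± 0.0806 in the control arrays (SD, n = 3 each). It was 2.58-fold lower (log2 difference -1.37, SE 0.059, limma adjusted p = 3.1e-06), next to TAGLN in rank. CAPG, which caps filament ends, was 2.2-fold lower (log2 difference -1.14, SE 0.065, limma adjusted p = 1.3e-05). SVIL, the membrane-bound actin binder supervillin, fell by 0.42 (limma adjusted p = 0.002), while TMOD1, which caps pointed ends, rose by 0.55 (limma adjusted p = 0.00045). When only probe sets named at were kept, SVIL differed by -0.086 and did not pass.

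Among 22 nucleator genes 3 fell and 2 rose, or 13.6% and 9.09%, against 6.19% and 7.14% of all genes, around a median of 7e-04. The Arp2/3 subunits ARPC5 and ARPC3 fell by 0.48 and fell by 0.37 (limma adjusted p = 0.00054 and 0.011). Of the formins, which build unbranched filaments, DIAPH3 fell by 0.63 (limma adjusted p = 0.008) and FMNL2 rose by 0.47 (limma adjusted p = 0.0013).

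Of 21 partners at adhesions and the cell cortex 6 fell and 2 rose, or 28.6% and 9.52%, against 6.19% and 7.14% of all genes. The filament bundler FSCN1 fell by 0.49 (limma adjusted p = 0.00071), the ILK partner LIMS2 fell by 0.35 (limma adjusted p = 0.0044) and PDLIM2 fell by 0.32 (limma adjusted p = 0.0038). PDLIM2 has 2 probe sets, which were not alike. The more variable one differed by -0.64 and the one named at by -0.0075, so its mean hides disagreement. CD44, a surface receptor tied to ezrin, rose by 0.39 (limma adjusted p = 0.019) and passed in 2 of the 6 fits that left out an array. Of all 6 lists together, 16 genes were lower and 3 higher without control replicate 2.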

How the data were processed

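The authors' deposited table held log2 values made with RMA, per the submitters' processing notes, with no version given. Centring per probe set was read from the values: each array's median is 0 and the baseline is not stated. It cancels in differences between labels. The log base is that of RMA's usual output. Exact zeros filled 17% to 21.1% of the tested values of each array and may narrow spreads. Of 49395 probe sets 102 were controls and left out. The platform annotation gave 1 symbol to 44988 of the remaining 49293 probe sets, several to 1832 and none to 2473. Probe sets with 1 symbol were averaged by gene, giving 18132 genes.

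Differences (silenced minus control) were fitted with limma 3.58.1 in R 4.3.3 (lmFit, eBayes, no block) on all 6 arrays, with Benjamini-Hochberg adjustment over all genes and a threshold of 0.05. With 3 arrays per label, the number of arrays limits precision. On simulated data for this comparison with 18132 genes, 76% of 100 genes changed by 0.5 and 95% of 100 changed by 1 were recovered. The simulation changed far fewer genes than the 2418 that passed here. Its noise was normal and independent, without the exact zeros of the real values. These shares may therefore not hold for the real fit. The members, the lists and the rule for named genes were chosen with earlier results of these data known. All measured members are named, and from each other list the 4 largest changes past the threshold, with KCNN4, MRTFA and MRTFB. Of the 6 lists, 1 enters the totals and is not reported here by itself. Sequences are from RefSeq (GRCh38.p14). Alternatives tried were other probe set summaries, robust and weighted fits, a second quantile normalisation, a filter on flat genes, the replicate number as a block and leaving out each array.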

Additional observations from a re-analysis of the deposited data

How the results depend on the processing

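The counts of 18 lower and 1 higher members stayed within 1.5 times under the median over probe sets, robust and weighted fits, a second quantile normalisation and the filter on flat genes. Taking each gene's most variable probe set, 0 members were higher (limma; 17 were lower), since MYH10 then did not pass. Plain at probe sets left 12 members, with 1 lower and 0 higher, 39 of the other listed genes, with 2 lower and 0 higher, and 565 of 8354 genes changed. With at and a_at probe sets, an alternative chosen after seeing the data, 8 of 31 members and 15 of 104 other listed genes were lower. In that fit 1968 of 16701 genes changed in either direction. Fewer genes and probe sets enter these fits. The control probe sets of ACTB, averaged in after seeing the data, changed no member's call.

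Leaving out 1 array gave 13 to 18 lower members and 1 higher member. Of the other listed genes 16 to 25 were lower and 3 to 5 higher. Changed genes numbered 1641 to 2289, against 2418 with all arrays. Changed probe sets numbered 3252 to 4592, against 5261 with all arrays. KCNN4 stayed between -0.045 and 0.055. It had no value with plain at probe sets, with at and a_at probe sets or with flat genes left out. The arrays of the 2 labels share replicate numbers, but same-numbered arrays did not deviate together (r of deviations -0.096, -0.069 and -0.04). With 3 arrays per label, this cannot show whether same-numbered arrays had a culture or handling in common. Each silenced-labelled array deviated most like a control array of another number (r 0.373, 0.381 and 0.381), and no crossed block was fitted. With the replicate block 13 members were lower and 1 higher, and 2065 genes changed. MYL12B, LIMA1, VCL, PFN1 and EZR no longer passed.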
